A study of Drosophila melanogaster with 8 samples.

Results

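The lineage of Drosophila LTR retrotransposons named after DM412 and mdg1 was described through the 6 of its families that were picked by name, out of 111 transposable element (TE) families with RNA levels in Drosophila melanogaster ovaries. DM412 is the usual longer name of the family that the tables list under its number alone. The other 5 were mdg1, blood, Stalker, Stalker2 and Tabor. Below, values given for the lineage are values of these 6 families alone. Of the remaining families, 48 were other LTR retrotransposons and 57 lay outside that class. RNA was sequenced after polyA selection from whole ovaries in 4 groups of 2 biological replicates. All flies carried GAL4 under the traffic jam promoter (tj-GAL4), which is active in the somatic follicle cells of the ovary, a thermosensitive GAL80 that holds GAL4 back in the cold, and a short hairpin against piwi (sh-piwi). The no-KD group, in a w background with tj-GAL4 on one chromosome and tubP-GAL80[ts] with sh-piwi on the next, stayed at 20 °C. The piwi-sKD group had the same genotype and spent its last 5 days at 25 °C, which releases GAL4. The double knockdowns had, by their label, the same shift and carried a single copy of the driver and of sh-piwi. Both were tj-GAL4 / + on the driver chromosome. Opposite the GAL80[ts] sh-piwi chromosome the piwi-sKD,ctrl-sKD flies carried sh-w, which targets the eye colour gene white and serves as the control, and the piwi-sKD,dcr2-sKD flies carried sh-dcr2. The library names of the double knockdowns carry 28 in the place where the others carry their temperature, and the label of 25 °C was followed.

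LTR retrotransposons copy themselves through RNA. An element is transcribed from one long terminal repeat to the other, and that RNA serves both as the messenger for Gag and Pol and as the template for reverse transcription, so its level is the first measure of how active a family can be. The lineage belongs to the Ty3/gypsy group of these elements. DM412 RNA is a classic marker of the somatic gonadal precursors in the fly embryo, mdg1 is among the first mobile dispersed genetic elements to be cloned, and blood takes its name from an allele of the white gene that it caused. In follicle cells, Piwi is loaded with piRNAs, many of which come from the flamenco locus (flam), a long transcript full of TE remnants, and silences matching elements at the level of transcription. Dicer-2 (Dcr2) makes the siRNAs of another small RNA pathway of somatic cells, which cuts RNA after transcription.

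Recovered TE reads ran from 78807 to 343458 per sample, and the size factors from 0.927 to 1.13. Between replicates, the median family differed by 0.132 to 0.175 (log2 scale), depending on the group. The deposited level is the normalised read count of a whole family, so reads of related families that share sequence may be shared between them, and the insertion that gave a read is not known. Gene levels were not used, so the knockdowns and the make-up of the ovaries were not checked here. In whole ovaries, more cells with an element's RNA and more of that RNA per cell cannot be told apart.

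The reference annotation showed what copies of the 6 families a fly genome can hold. In the BDGP6.54 annotation, 162 of 5880 TE insertions belonged to the lineage, once entries of a family that shared at least 0.9 of their span were merged as 1 insertion (5 entries of the lineage). mdg1 had 44 and DM412 41, followed by blood with 29, Stalker with 20, Stalker2 with 17 and Tabor with 11. Of these, 77 lay in introns, 21 overlapped an exon and 64 lay outside genes. The families differed in how intact their copies were. Near-full-length insertions were counted among those that overlap no other annotated TE, at 0.9 or more of the longest of these. They numbered 27 for DM412, 24 for blood, 16 for mdg1, 6 for Stalker, 6 for Stalker2 and 4 for Tabor. Long copies nested in another TE, such as a DM412 copy of 7537 bp, are thus left out of these counts. The near-full-length copies of all 6 families were of similar size, with medians between 7238.5 bp for Stalker and 7882 bp for Stalker2. Most copies of Stalker were fragments, with a median span over all its insertions of 1836 bp, whereas the median was 7490 bp for DM412. Insertions carried by the fly lines themselves were not analysed here.

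Among the 6 families, 5 had annotated insertions inside flam. The share of all annotated families with an insertion there was not counted, so neither the 5 nor the exception is set against it. The locus spans 158841 bp on the plus strand of chromosome X, from 21631891 to 21790731. It held 47 annotated insertions of 24 families, of which 37 (78.7%) ran antisense to it, the orientation that gives piRNAs complementary to the element's RNA. The lineage made up 15 of the 47, with 12 of the 15 (80.0%) antisense. Stalker had 5 pieces there, 4 of them antisense, and the longest, of 6757 bp, ran from 21680585 to 21687341 over a flam exon. Stalker2 had 2 pieces, both antisense, and one of them spanned 15521 bp from 21640019 to 21655539 because a DM412 insertion of 7537 bp (21641243 to 21648779, antisense) was nested within it. That nested copy was the sole DM412 insertion in flam. The sole blood insertion was also antisense and overlapped a springer element (21716913 to 21731788). Of 6 mdg1 pieces, all in flam introns, 4 were antisense. The longest, of 15396 bp (21689243 to 21704638), was in sense. Antisense pieces of 7070 bp (21689685 to 21696754) and 440 bp lay within it. None of the 11 annotated Tabor insertions lay in flam. The nearest was a minus-strand copy of 7341 bp (21806657 to 21813997), beyond the annotated end of the locus. The study reports both Tabor and DM412 among the families with the strongest piRNA loss in piwi-sKD, and piRNAs were not analysed here. Neighbouring pieces may be fragments of a single insertion, so the counts in flam are counts of annotated pieces.

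**Figure D1:**
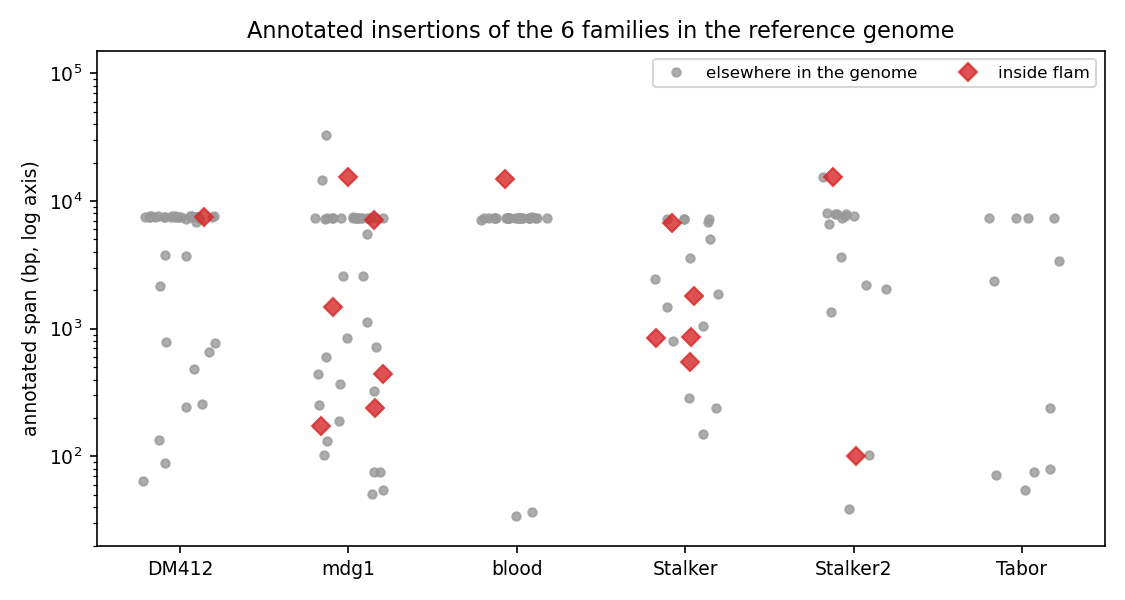
Annotated span of every insertion of the 6 families in the reference genome, in bp on a log axis, with insertions inside flam as diamonds and all others as circles, spread sideways for sight alone. DM412 and blood copies gather near full length, Stalker copies are mostly shorter, and Tabor, with 11 insertions, has none in flam.

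The first comparison asked what the depletion of Piwi from follicle cells does to the RNA of these elements. All 6 families were higher in piwi-sKD than in no-KD, and for 5 of them the rise was between 5.28-fold and 13.3-fold. The exception was Tabor, whose level was 1.46-fold higher. All 6 passed the test (limma on log2(normalised count + 1), adjusted p under 0.05), as did 55.0% of all families tested, in the same direction. The p-values of this comparison, under other scalings too, rest in part on a spread pooled across families (prior degrees of freedom 6.11 in the main fit). With that spread not allowed to depend on abundance, the limma adjusted p ran from 9.91e-05 for DM412 to 0.0204 for Tabor. They are to be read beside the sample values. By the ratio of group means, 5 of the 6 were over 2-fold higher, against 28.7% of all families. Both piwi-sKD samples were above both no-KD samples for all 6, and for 73.4% of all families. The calls over all families depended on the scaling. As deposited, 60 were called higher and 6 lower. Centring each sample on the median level of its families gave 22 higher and 73 lower, and an equal TE sum gave 22 and 78. These scalings shifted the changes of the 6 by medians of -1.22 and -1.37, whereas the median change of all families was 0.47. Both took off more than the typical change, so 73 and 78 do not count families that fell relative to it. Of the 6, Tabor alone changed direction under these scalings. Because the 20 °C and 25 °C cultures are also the groups, the temperature and the loss of Piwi cannot be told apart here.

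DM412 was the most abundant of the 6 at the start. It was at 6516 and 5875 normalised counts in the no-KD replicates and at 40777 and 49292 in piwi-sKD. That is a 7.27-fold rise of the mean, with a log2 fold change of 2.86 ± 0.14 (SE, n = 2 per group, limma adjusted p = 2.39e-07), and single piwi-sKD samples stood 6.26 to 8.39 times above single no-KD samples. DM412 ranked as the second most abundant TE family in both no-KD samples and as the first in both piwi-sKD samples.

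Blood and mdg1 began at nearly the same level and rose along with it. Blood was at 1507 and 1261 in no-KD and at 9950 and 12241 in piwi-sKD, an 8.02-fold rise (log2 fold change 3.0 ± 0.14, limma adjusted p = 2.10e-07). mdg1 was at 1573 and 1402 in no-KD and at 7837 and 9665 in piwi-sKD, a 5.88-fold rise (log2 fold change 2.55 ± 0.13, limma adjusted p = 2.98e-07). The order of the pair thus turned. In no-KD the values of the pair overlapped once divided by length, and in piwi-sKD both blood samples were above both mdg1 samples.

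Stalker had the largest fold change of the 6 and the lowest level. It was at 35.6 and 16.1 normalised counts in no-KD, from 33 and 16 reads, and at 344.0 and 343.4 in piwi-sKD. The 95% Poisson intervals of the no-KD values, which cover counting error only, were 24.5 to 49.97 and 9.23 to 26.2. Its mean was 13.3-fold higher (log2 fold change 3.78 ± 0.32, limma adjusted p = 1.09e-05), but single pairs of samples ranged from 9.65 to 21.3 times, the widest range of the 6. Few reads in no-KD therefore limit how well the size of the rise is known, not its direction. Stalker went from rank 95 and 100 among the families in no-KD to rank 57 in both piwi-sKD samples.

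Stalker2 was at 597 and 521 in no-KD and at 2659 and 3241 in piwi-sKD, a 5.28-fold rise (log2 fold change 2.39 ± 0.13, limma adjusted p = 4.12e-07). A further family of the same name outside the 6, Stalker4, went from 398 and 341 to 1132 and 1184, or 3.13-fold (log2 fold change 1.65 ± 0.11, limma adjusted p = 2.98e-06). The elements with the Stalker name thus covered a range from 3.13-fold to 13.3-fold.

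Tabor stood apart. It was at 877 and 779 in no-KD and at 1151 and 1261 in piwi-sKD, so that the samples did not overlap, with a log2 fold change of 0.54 ± 0.11 (limma adjusted p = 0.00269). This was close to the median of all 109 families tested, which was 0.47 on the same scale, and Tabor ranked 48 of the 109 where the other 5 ranked 5 to 15. Its direction turned under each of 4 other scalings. Among them were centring on the median level of the families outside the LTR class (log2 fold change -0.17, limma adjusted p = 0.299) and an equal TE sum (-0.82, limma adjusted p = 9.79e-12). That centring shifted the changes of the 6 by a median of -0.71, more than the median change of 0.40 of those families. The TE sum was 2.59 times higher in piwi-sKD, so making it equal turns any family that rose less. After subtraction of the median change of all families, Tabor stood at 0.074 on the log2 scale. The other 5 stood at 1.92 for Stalker2, 2.08 for mdg1, 2.39 for DM412, 2.53 for blood and 3.31 for Stalker.

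**Figure D2:**
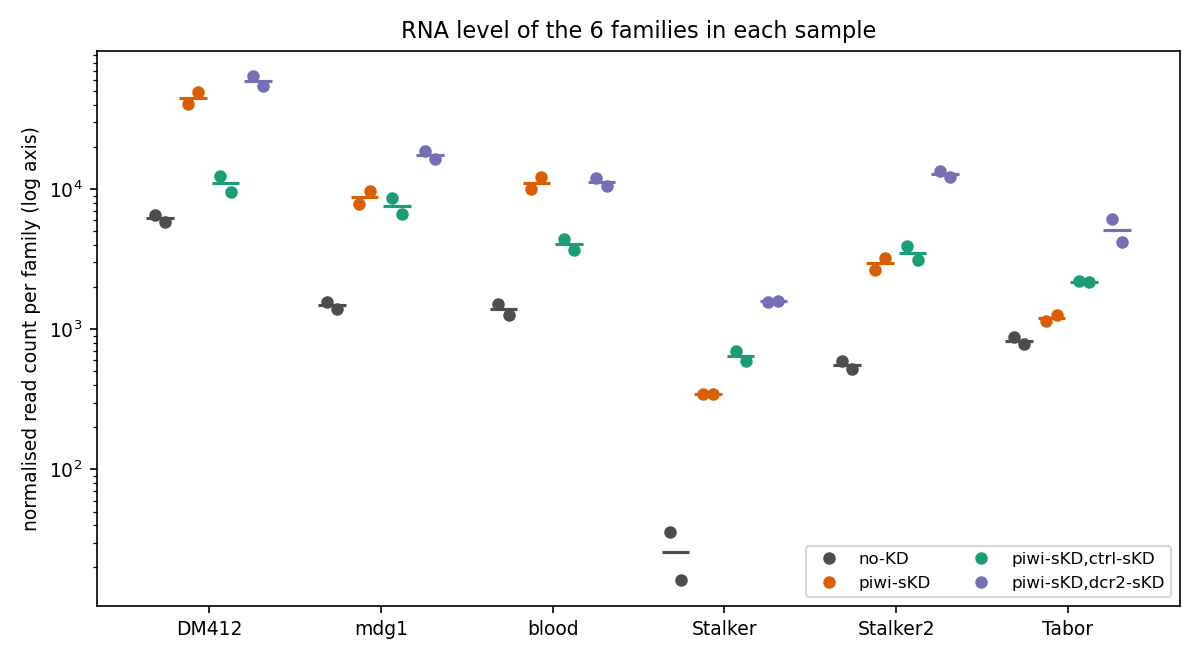
Normalised read count of each of the 6 families on a log axis, with a point for each of the 8 samples and a bar for the mean of the 2 replicates, the 4 groups side by side. The piwi-sKD points lie above the no-KD points for all 6, by little for Tabor (1.46-fold, a direction that turns under 4 other scalings), and the piwi-sKD,dcr2-sKD points lie above those of piwi-sKD,ctrl-sKD throughout. The no-KD and piwi-sKD values were normalised apart from those of the double knockdowns.

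The median log2 fold change was 2.70 over the 6 families, with a range from 0.54 to 3.78. Over the 48 other LTR families it was 0.54, with 30 called higher, 2 called lower and 18 over 2-fold higher. Over the 55 families tested outside the LTR class it was 0.40, with 24 called higher and 4 called lower, and 8 of 54 were over 2-fold higher.

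The second comparison asked what the further loss of Dcr2 does once Piwi is depleted. All 6 families were higher in piwi-sKD,dcr2-sKD than in piwi-sKD,ctrl-sKD, by 2.30-fold to 5.39-fold. All 6 passed the test, against 27.3% of all families called in that direction, and all 6 were over 2-fold higher by the ratio of means, against 11.9% of all families. Both samples with the Dcr2 hairpin were above both control samples for all 6, and for 54.5% of all families. Over all families, 30 were called higher and 4 lower as deposited. The counts were 16 and 19 after centring on the median level of the families, and 12 and 65 with an equal TE sum. The 6 were called higher under each of these. By the labels, these groups shared their temperature and genotype apart from the second hairpin.

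DM412 had the largest fold change of the 6. Its level was 12444 and 9542 normalised counts in the control and 64169 and 54229 with the Dcr2 hairpin, a 5.39-fold rise (log2 fold change 2.44 ± 0.21, n = 2 per group, limma adjusted p = 1.41e-23). It had the third highest fold change of all 110 families tested. Stalker2 came next, at 3900 and 3133 in the control and at 13443 and 12292 with the Dcr2 hairpin (3.66-fold, log2 fold change 1.88 ± 0.16, limma adjusted p = 1.60e-23).

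The remaining 4 rose by similar amounts. Blood was at 4437 and 3684 in the control and at 12046 and 10569 with the Dcr2 hairpin, or 2.78-fold higher (log2 fold change 1.48 ± 0.16, limma adjusted p = 3.92e-16). Stalker was at 699 and 598 and at 1576 and 1591, or 2.44-fold higher (log2 fold change 1.29 ± 0.14, limma adjusted p = 2.15e-16). Stalker, the family with the fewest reads in no-KD, thus had 637 to 1693 reads in each sample here, and its single-sample ratios were narrow, from 2.25 to 2.66.

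Tabor and mdg1 closed the order. Tabor, the family that had hardly moved in the first comparison, was at 2210 and 2166 in the control and at 6103 and 4172 with the Dcr2 hairpin (2.35-fold, log2 fold change 1.21 ± 0.15, limma adjusted p = 2.00e-13). Relative to their level, its treated replicates were the most spread of the 6, at a ratio of 1.46. mdg1 was at 8632 and 6633 and at 18759 and 16392 (2.30-fold, log2 fold change 1.21 ± 0.18, limma adjusted p = 5.25e-10). For both, the lowest ratio between single samples was under 2-fold, at 1.89 for Tabor and 1.90 for mdg1.

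The median of all families in this comparison was 0.24 on the log2 scale. Relative to it, the rise of 4 families was still over 2-fold, with 2.20 for DM412, 1.64 for Stalker2, 1.24 for blood and 1.05 for Stalker, whereas Tabor and mdg1 were each at 0.97. With the samples themselves scaled to the median level of all families, DM412, Stalker2 and blood were left over 2-fold. With the TE sum made equal, DM412 and Stalker2 were left. The direction was kept in all 6 under these scalings. The p-values of this comparison come from a spread pooled across families of similar abundance rather than from the replicates of each family, and are to be read beside the sample values.

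**Figure D3:**
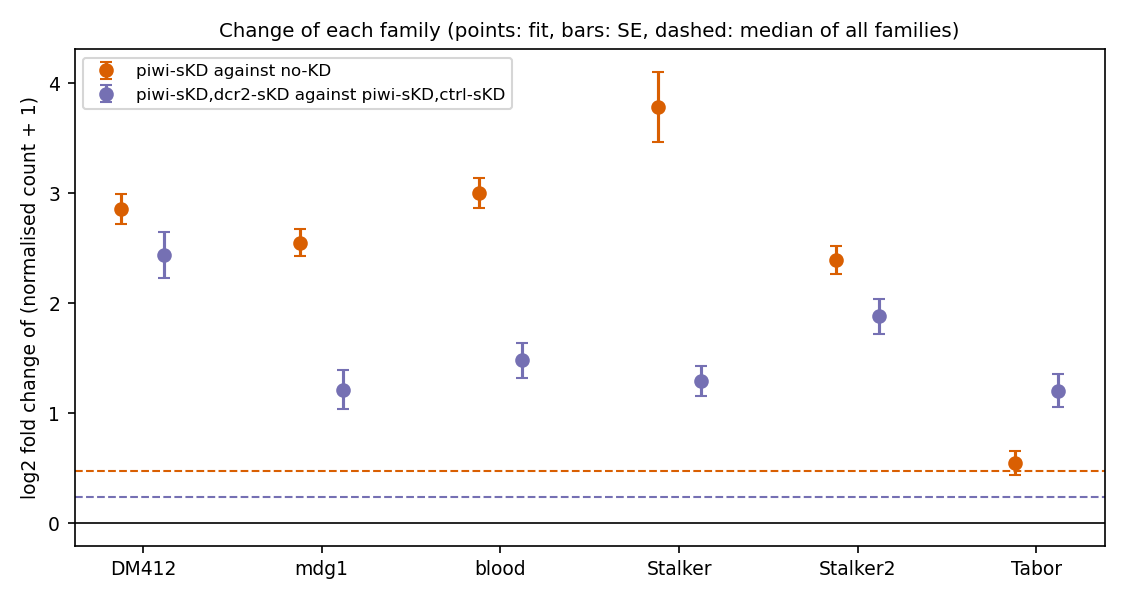
Log2 fold change of the 6 families on the scale of normalised count + 1, as fitted by limma, with bars of 1 SE, for piwi-sKD against no-KD and for the Dcr2 hairpin against its control. Dashed lines mark the medians of all families, 0.47 and 0.24. Tabor lies at 0.54 in the first comparison, where its direction turns under 4 other scalings, and at 1.21 in the second.

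Over the lineage the median log2 fold change was 1.39, with a range from 1.21 to 2.44. It was 0.21 over the 48 other LTR families, of which 13 were called higher, 4 lower and 6 were over 2-fold higher. Outside the LTR class the median was 0.22 over 56 families, with 11 called higher, and 1 of 55 over 2-fold higher. Stalker4, at 1582 and 1460 in the control, was at 2996 and 2968 with the Dcr2 hairpin (1.96-fold, log2 fold change 0.97 ± 0.14, limma adjusted p = 4.75e-10).

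The 2 fold changes ordered the families differently. Stalker had the largest change with Piwi depletion and DM412 with the loss of Dcr2, while Tabor was last in the first and level with mdg1 at the end of the second. DM412 had nearly as large a fold change in the second comparison as in the first (5.39-fold and 7.27-fold), whereas Stalker had a far smaller one (2.44-fold and 13.3-fold). Whether the changes differ between the comparisons was not tested, since the tables were normalised separately and the groups differ in the dose of sh-piwi.

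For each family, the 3 TE families outside the lineage with the most similar pair of log2 fold changes were also found, among 99 candidates whose mean reached 10 normalised counts. The shortest distance was that of Stalker to copia, 0.050 on the log2 scale (3.82 and 1.25 for copia). That distance is well inside the SE of 0.32 of the first change of Stalker, which rests on 33 and 16 reads in no-KD and ran from 3.24 to 4.33 with 1 library left out, so the rank of this match is not firm. Blood lay near gypsy6 (3.23 and 1.36), at a distance of 0.26. For DM412 the nearest family, springer (1.91 and 2.87), was 1.05 away, and for Stalker2 gypsy6 was 0.98 away, so neither had a close neighbour.

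Tabor and mdg1 lay nearest to elements of another class. The nearest families to Tabor were Doc (0.68 and 1.02) and F (0.53 and 0.81), at distances of 0.23 and 0.39. Both are non-LTR retrotransposons, which lack terminal repeats and are copied by reverse transcription at the insertion site. The third nearest to Tabor was the LTR family gypsy11, at a distance of 0.46. The SEs of the changes were 0.11 and 0.15 for Tabor and 0.34 and 0.31 for gypsy11. Which of the 3 is nearest to Tabor is therefore not firm. The nearest family to mdg1 was R1A1 (2.34 and 0.68), a non-LTR element that inserts into ribosomal RNA genes, at a distance of 0.57. It was followed by the LTR families gypsy6 at 0.69 and invader3 (3.33 and 1.02) at 0.80. These distances lie close together beside the SEs of the changes of mdg1, 0.13 and 0.18, so which of them is nearest is not firm.

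**Figure D4:**
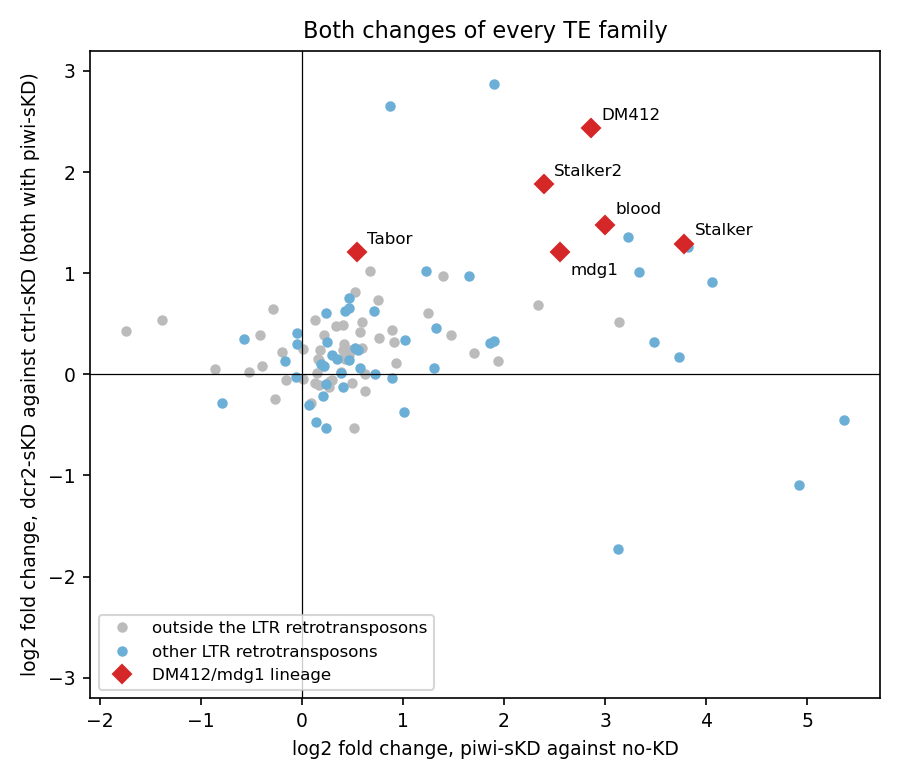
Log2 fold change of every TE family with Piwi depletion (x axis, piwi-sKD against no-KD) and with the Dcr2 hairpin (y axis, against the control hairpin, both with piwi-sKD), with the lineage as diamonds. The 6 families lie right of and above 0 on both axes, Tabor near the left edge of the group at 0.54 (a direction that turns under 4 other scalings) and DM412 highest at 2.44.

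The lineage also took a larger part of all TE RNA. A share within a sample does not depend on its size factor, but it does depend on the other families in the sum. One of them, the LTR family Tirant, was at 97.4 to 173.6 normalised counts in the no-KD and piwi-sKD samples and at 57299 to 65146 in the double knockdowns, where it made up 34.6% ± 2.4 of the TE signal with the control hairpin and 19.8% ± 2.6 with the Dcr2 hairpin. The shares are therefore given with and without Tirant, a choice made after its level was seen. The 6 families together held 12.8% and 12.4% of the TE signal in the no-KD replicates and 31.6% and 32.9% in piwi-sKD. In the double knockdowns they held 16.8% and 14.4% with the control hairpin and 36.3% and 33.7% with the Dcr2 hairpin. The share was thus higher in both treated replicates than in either reference replicate, in each comparison, and no test of the shares was run. Without Tirant the shares were 12.9% and 12.4%, 31.6% and 32.9%, 25.0% and 22.6%, and 44.2% and 43.0%, in the same order of groups. The control share thus stood near that of no-KD with Tirant counted and about midway between no-KD and piwi-sKD without it, and the rise within each comparison was there both ways.

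The summed level of the lineage was 6.62 times higher in piwi-sKD than in no-KD, while that of all other families together was 2.01 times higher. The lineage accounted for 44.7% of the gain in TE signal, of which DM412 alone made 29.5 percentage points. With the Dcr2 hairpin the sum was 3.71 times that with the control hairpin, against 1.27 times for the other families (1.499 times without Tirant), and the lineage accounted for 65.0% of the gain, with 39.9 percentage points from DM412. The share did not rest on DM412 alone. With DM412 left out of both sums, the other 5 families held 5.57% ± 0.24 (SD, n = 2) of the TE signal in no-KD, 14.3% ± 0.57 in piwi-sKD, 10.3% ± 1.0 with the control hairpin and 19.5% ± 1.1 with the Dcr2 hairpin. With Tirant left out as well, the last pair was 16.3% ± 1.0 and 25.9% ± 0.47. Of the signal of the LTR families, the 6 held 26.9% ± 0.83, 44.6% ± 0.46, 18.9% ± 2.09 and 40.4% ± 1.82, in the same order. Tirant decided the place of the control in that order, since without it the shares were 27.0% ± 0.81, 44.7% ± 0.49, 32.5% ± 2.0 and 52.3% ± 0.21, and the control share was above that of no-KD in place of below it.

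**Figure D5:**
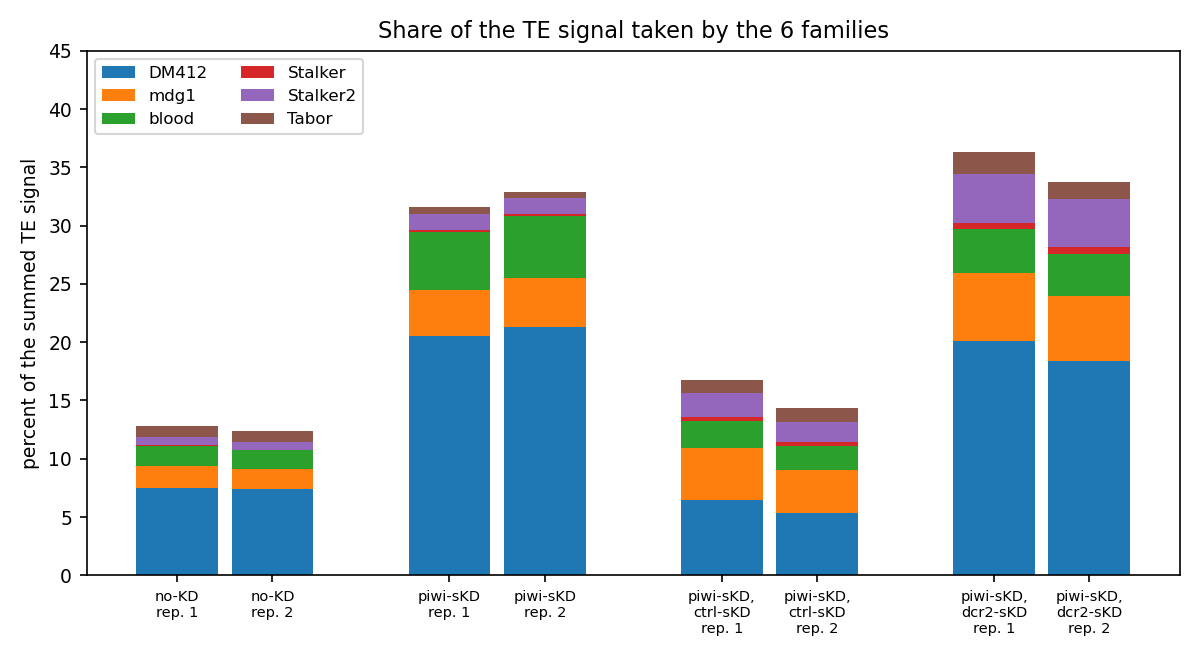
Percent of the summed TE signal held by each of the 6 families, stacked, in each of the 8 samples. The stacks reach 12.4% to 12.8% in no-KD, 31.6% to 32.9% in piwi-sKD, 14.4% to 16.8% in piwi-sKD,ctrl-sKD and 33.7% to 36.3% in piwi-sKD,dcr2-sKD, and DM412 is the largest part of every stack. In the double knockdowns Tirant, outside the 6, holds 34.6% ± 2.4 and 19.8% ± 2.6 of the signal.

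As a share of the TE signal, Tabor was the one family of the 6 that was lower in piwi-sKD (0.563% ± 0.024) than in no-KD (0.997% ± 0.024). The share of DM412 went from 7.46% to 20.9%, that of blood from 1.66% to 5.15%, that of mdg1 from 1.79% to 4.06%, that of Stalker2 from 0.673% to 1.37% and that of Stalker from 0.031% to 0.161%. With the Dcr2 hairpin the shares of all 6 were higher than with the control hairpin, Tabor included, at 1.66% ± 0.35 against 1.18% ± 0.045. Without Tirant in the sum the Tabor samples overlapped, at 2.33% and 1.81% against 1.71% and 1.90%.

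The make-up of the lineage differed between the groups. DM412 made up 59.1% of the lineage's signal in no-KD, 64.9% in piwi-sKD, 37.8% with the control hairpin and 55.0% with the Dcr2 hairpin. Relative to DM412 in the same sample, mdg1 was at 24.0% ± 0.20 in no-KD and 19.4% ± 0.28 in piwi-sKD, but at 69.4% ± 0.10 with the control hairpin and 29.7% ± 0.70 with the Dcr2 hairpin. Stalker2 was at 9.02% ± 0.22 and 6.55% ± 0.038 of DM412 in the first pair of groups, and at 32.1% ± 1.05 and 21.8% ± 1.21 in the second. The groups with Piwi but not Dcr2 targeted, piwi-sKD and piwi-sKD,ctrl-sKD, thus differed in the proportions of the lineage by more than the replicates did. They differ in genotype, in the dose of the hairpin and driver and, by the number in their library names, possibly in temperature, and the part of these in the difference was not tested.

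Divided by the median length of the near-full-length copies, the order of the 6 families was led by DM412 and closed by Stalker in every group. In no-KD the means per kb were 826 for DM412, 202 for mdg1, 187 for blood, 113 for Tabor, 70.9 for Stalker2 and 3.57 for Stalker, and mdg1 and blood overlapped. In piwi-sKD they were 6002 for DM412, 1497 for blood, 1188 for mdg1, 374 for Stalker2, 164 for Tabor and 47.5 for Stalker, with no overlap between neighbours. Between these groups Tabor and Stalker2 exchanged places.

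With the control hairpin the order was DM412 (1465 per kb), mdg1 (1036), blood (548), Stalker2 (446), Tabor (298) and Stalker (89.6), again with no overlap. With the Dcr2 hairpin it was DM412 (7890), mdg1 (2385), Stalker2 (1633), blood (1526), Tabor (700) and Stalker (219), with Stalker2 and blood overlapping. The exchange of Stalker2 and blood is thus within the spread of the replicates.

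Across the tables, which were normalised separately, the lowest mean of each of the 6 families was in no-KD and the highest in piwi-sKD,dcr2-sKD. The families split in the middle of the order. For DM412, mdg1 and blood the mean in piwi-sKD,ctrl-sKD was below that in piwi-sKD, with overlapping samples for mdg1. For Stalker, Stalker2 and Tabor it was above, with overlapping samples for Stalker2. Blood had nearly the same level in piwi-sKD (11096 ± 1620) and in piwi-sKD,dcr2-sKD (11308 ± 1044), and these samples overlapped.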

How the data were processed

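RNA-seq of polyA-selected ovary RNA was analysed from the normalised counts of 111 TE families in 8 samples. The authors trimmed reads with UrQt, counted genes on TopHat2 alignments with eXpress and TE families with TEcount, and divided the counts by size factors from DESeq2 1.10. The gene and TE counts were joined for this normalisation. The deposited signal is this normalised read count, in 2 tables of 4 samples that were normalised separately. All 8 columns were used and 0 were left out. How a read matching several families was assigned is not given in the sources used here.

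Every value was a whole multiple of a step per sample (100% of values, tolerance 1e-06 reads), from which reads and size factors were taken. Each comparison was fitted within its table with limma 3.58.1 in R 4.3.3 (mean-variance trend, prior degrees of freedom 6.11 in the first and infinite in the second) on log2(value + 1), with group as the only term and Benjamini-Hochberg adjustment over all 109 or 110 families with any value above 0, at a threshold of 0.05. The test was checked on simulated data, with families drawn independently at the same dispersion, so shifts shared across families were not covered. Fold changes are ratios of group means with a threshold of 2-fold. The correlation of deviations of same-numbered replicates, over 105 families, was -0.13 in the first comparison and 0.25 in the second. They thus deviated together to some degree in the second alone. No block was fitted in the main test, and a replicate block was fitted as an alternative. Insertions were taken from the BDGP6.54 annotation, with double entries merged.

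The families named were all 6 of the lineage, Stalker4, and for each of the 6 the 3 families nearest in the plane of both log2 fold changes. The 6 families and the list of 54 LTR families were chosen with earlier results of these data known.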

Additional observations from a re-analysis of the deposited data

How the results depend on the processing

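The 12 log2 fold changes of the 6 families were recomputed under 174 combinations of family and alternative setting. In 170 of them the direction and the side of the 0.05 threshold were kept, and 4 turned, all for Tabor in piwi-sKD against no-KD. There its log2 fold change was -0.67 after centring each sample on the median level of its families (limma adjusted p = 1.97e-05). It was -0.17 when centred on families outside the LTR class (limma adjusted p = 0.299) and -0.82 at an equal TE sum (limma adjusted p = 9.79e-12). It was -0.46 with the sum of the families outside the 6 made equal (limma adjusted p = 4.50e-05), a setting chosen after seeing the data. In this order the 4 scalings shifted the changes of the 6 by a median of -1.22, -0.71, -1.37 and -1.0 on the log2 scale, and by -0.37, -0.39, -0.72 and -0.34 in the comparison of the Dcr2 hairpin, where the number of the 6 over 2-fold higher went from 6 to 3, 3, 2 and 3. Of all families, the number called higher with Piwi depletion went from 60 to 22, 28, 22 and 26 and the number called lower from 6 to 73, 35, 78 and 69. With the Dcr2 hairpin they went from 30 to 16, 14, 12 and 17 and from 4 to 19, 18, 65 and 19. Leaving out no-KD replicate 2 left 3 families called lower, and leaving out either piwi-sKD,dcr2-sKD replicate left 2. With 1 replicate left out, the lone sample is assumed to vary like the other group. Each of the 6 families kept its call, and Tabor ran from 0.46 to 0.63 in the first comparison (highest limma adjusted p 0.0486) and from 0.93 to 1.48 in the second. A replicate block left 53 families called higher and 5 lower with Piwi depletion, and 33 and 3 with the Dcr2 hairpin, with all 6 of the lineage among those higher. A crossed replicate block, added after seeing the data, gave 64 and 8 with Piwi depletion. Without Tirant in the TE signal, added after seeing the data, the share of the 6 went from 15.6% to 23.8% in piwi-sKD,ctrl-sKD and from 35.0% to 43.6% in piwi-sKD,dcr2-sKD. Count models, and a search for sequence shared between the 6 families, were not run. Among the 6, depth limits Stalker most, at 33 and 16 reads in no-KD.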
